A study of Mus musculus with 2 samples.

Results

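The transcripts of 8 genes were examined in primordial germ cells (PGCs) of the mouse, from which eggs and sperm later arise. They comprise the germ cell RNA-binding proteins Nanos3, Dnd1, Dazl and Ddx4, and Cnot1, Cnot3, Cnot7 and Cnot8, which encode subunits of the Ccr4-Not deadenylase. Members were taken by gene symbol, and all 8 were found among the 18877 genes of the table. RNA-seq was performed on 2 biological replicates of 1 group, untreated C57BL6 PGCs isolated at embryonic day 9.5 with an antibody against SSEA1. SSEA1 is a carbohydrate antigen on the surface of PGCs and of pluripotent cells. The study's methods describe the embryos as female and the tissue as embryonic gonads, and give sorting with SSEA1 and CD61 antibodies or with SSEA1 beads alone, so the sort used for these cells is uncertain. The cultured cells and other stages that the study set beside these PGCs were not analysed here. With 1 group, no test between groups was possible, and the values below describe levels and their spread over both libraries.

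PGCs carry large amounts of regulated mRNA and rely on RNA-binding proteins to decide which transcripts are translated, stored or degraded. Nanos proteins are zinc finger proteins that bring target mRNAs to the Ccr4-Not complex, which shortens the poly(A) tail and thereby promotes decay of the mRNA. Dnd1 binds mRNA through RNA recognition motifs and acts with Nanos proteins and Ccr4-Not, and loss of Nanos3 or Dnd1 in the mouse leads to loss of PGCs. Dazl is a poly(A) mRNA-binding protein that licenses PGCs for gametogenesis, and Ddx4 (Vasa) is a DEAD-box RNA helicase of germ cell granules.

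The cell type was first checked against its markers. All 5 PGC markers examined (Dppa3, Tfap2c, Prdm1, Prdm14 and Kit) were detected, meaning that each library had 1 TPM or more, from 6.98 ± 1.22 TPM (SD, n = 2) for Prdm1 to 5044 ± 44.1 TPM for Dppa3. TPM is a relative abundance, in which the reads of a gene are divided by its length and each library is scaled to the same total. Embryonic globin transcripts, which mark erythroid cells, were also abundant, led by Hba-x at 2198 ± 188 TPM, whereas the erythroid factor Klf1 was at 0.275 and 1.56 TPM. The summed level of the 4 erythroid markers was 3529 TPM in replicate 1 and 3328 TPM in replicate 2. Detected among markers of other cells were 1 of 3 endothelial genes (summed level 10.4 and 10.8 TPM), 1 of 3 gut endoderm genes (160 and 138 TPM), 1 of 4 mesenchyme genes (2.37 and 3.95 TPM) and 3 of 4 macrophage genes (19.4 and 9.53 TPM). The endothelial gene was Pecam1 and the gut endoderm gene Epcam, both of which PGCs also express. Foxa1 was listed at 0 in both libraries, and Foxa2 at 0 TPM in replicate 1 and 0.505 TPM in replicate 2. In such a bulk sample, fewer cells of a type and less RNA per cell cannot be told apart, and the share of these transcripts that came from cells other than PGCs was not tested. Replicate 1 held 15912470 recovered reads and replicate 2 held 5458687, so replicate 1 was 2.92 times as deep.

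Because levels of related genes can be blurred by reads that fit several places, sequences of the members were compared first. Cnot7 and Cnot8 are paralogs that encode alternative nucleases of the complex. Their coding sequences (GENCODE M21) were identical at 72.6% of 851 aligned bases, and the longest run without a difference was 20 bases, at bases 463 to 482 of both coding sequences, counted from the start codon. That run is shown because it is the longest stretch common to these coding sequences. Untranslated parts of the transcripts were not part of this alignment.
Cnot7 and Cnot8: tcatttcacagtggttatga
No stretch of 50 bases was therefore common to both coding sequences, and reads that span more than this run can be told apart there. For the germ cell members and their relatives, the longest runs shared by the coding sequences were 23 bases for Ddx4 and Ddx3x and 18 for Dnd1 and Rbm46. They were 17 for Dazl and Boll and 11 for Nanos3 and Nanos1. Across all annotated transcripts, no stretch of 50 bases of Nanos3, Dazl or Ddx4 occurred in another gene. Shared stretches of this length made up 0.285% of those of Dnd1 and 0.169% of those of Cnot7. They made up 4.28% for Cnot1, 8.83% for Cnot3 and 7.82% for Cnot8, mostly with the processed pseudogenes Gm6158, Gm9207 and Gm18860. The Cnot1 pseudogene Gm6158 held 28 and 9 reads and the Cnot8 pseudogene Gm18860 held 52 and 16 reads in replicates 1 and 2. Gm9207 was not analysed here, so the value of Cnot3 is the least certain in this respect.

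Nanos3, the Nanos family member of migrating PGCs (chromosome 8, 84173731 to 84185217, minus strand, GRCm38), had the highest level. It was at 473 TPM in replicate 1 and 453 TPM in replicate 2 (mean 463 ± 14.3, SD, n = 2), with 4153 and 1398 reads behind these values. The exact Poisson 95% interval, which covers counting error only, was 459 to 487 TPM in replicate 1 and 429 to 477 TPM in replicate 2, so the libraries overlapped. Nanos3 stood at percentile 97.9 of all genes in the table, as the mean of both libraries. Dazl (chromosome 17, 50279395 to 50293636, minus strand) followed at 127 TPM in replicate 1 and 114 TPM in replicate 2 (mean 121 ± 9.83), at percentile 94.4. Its 4629 and 1450 reads gave intervals of 124 to 131 and 108 to 120 TPM, which did not overlap, and replicate 2 was the lower library. Dazl thus held more reads than Nanos3 in both libraries, over annotated exons of 3820 bases against 924 bases for Nanos3.

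Dnd1 (chromosome 18, 36763671 to 36766214, minus strand) was at 37.0 TPM in replicate 1 and 33.6 TPM in replicate 2 (mean 35.3 ± 2.39, SD, n = 2), at percentile 87.1. These values rested on 848 and 271 reads, and their intervals of 34.5 to 39.6 and 29.7 to 37.9 TPM overlapped. Dnd1 was therefore well detected but below its partner Nanos3, which was 12.8 times as high in replicate 1 and 13.5 times as high in replicate 2. Of the exon bases of Dnd1, 5.80% overlap those of Wdr55 on the opposite strand, and Wdr55 held 668 and 256 reads in replicates 1 and 2. Strand use during counting is not given in the sources used here. Ddx4 (chromosome 13, 112598333 to 112652475, minus strand) was the lowest of the germ cell members, at 21.3 TPM in replicate 1 and 15.8 TPM in replicate 2 (mean 18.5 ± 3.87). Its 609 and 159 reads gave intervals of 19.6 to 23.0 and 13.4 to 18.4 TPM, which did not overlap. The germ cell members thus spanned a wide range, and Nanos3 was 22.2 and 28.7 times as high as Ddx4 in replicates 1 and 2.

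Cnot1, Cnot3, Cnot7 and Cnot8 were each lower than Nanos3, Dazl and Dnd1 in both libraries. Cnot1 (chromosome 8, 95719451 to 95807464, minus strand) encodes the scaffold on which the complex assembles and to which Nanos proteins bind. It was at 5.97 TPM in replicate 1 and 7.30 TPM in replicate 2 (mean 6.64 ± 0.937, SD, n = 2), with 975 and 419 reads and intervals of 5.60 to 6.36 and 6.62 to 8.03 TPM. Nanos3 exceeded Cnot1 79.1-fold in replicate 1 and 62.0-fold in replicate 2, on the scale of deposited TPM. Cnot3 (chromosome 7, 3645268 to 3661109, plus strand), a subunit that pairs with Cnot2 in the complex, had the lowest level of all members. It was at 1.02 TPM in replicate 1 and 1.09 TPM in replicate 2 (mean 1.05 ± 0.0514), at percentile 33.3, with only 69 and 26 reads and wide intervals of 0.792 to 1.29 and 0.713 to 1.60 TPM.

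Cnot7 (chromosome 8, 40492540 to 40515847, minus strand), a Caf1-type nuclease of the complex, was at 17.0 TPM in replicate 1 and 20.7 TPM in replicate 2 (mean 18.8 ± 2.58, SD, n = 2). Its intervals of 15.9 to 18.1 and 18.7 to 22.8 TPM did not overlap, and replicate 2 was the higher library. Its paralog Cnot8 (chromosome 11, 58104153 to 58118594, plus strand) was at 20.2 TPM in replicate 1 and 22.7 TPM in replicate 2 (mean 21.4 ± 1.77), with overlapping intervals of 18.5 to 22.0 and 19.7 to 26.1 TPM. Both nucleases were expressed at similar deposited values, Cnot8 being 1.19 times Cnot7 in replicate 1 and 1.10 times in replicate 2. Of the exon bases of Cnot7, 4.24% overlap Zdhhc2 on the opposite strand, and 6.07% of those of Cnot3 overlap Leng1, also on the opposite strand. In replicates 1 and 2, Zdhhc2 held 394 and 185 reads. Leng1 held 94 and 48 reads, more than the 69 and 26 of Cnot3. Whether reads of Leng1 entered the count of Cnot3 was not tested. For Cnot1, 0.77% overlap 4930513N10Rik on the opposite strand, a gene that held 1819 and 802 reads in replicates 1 and 2.

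**Figure D1:**
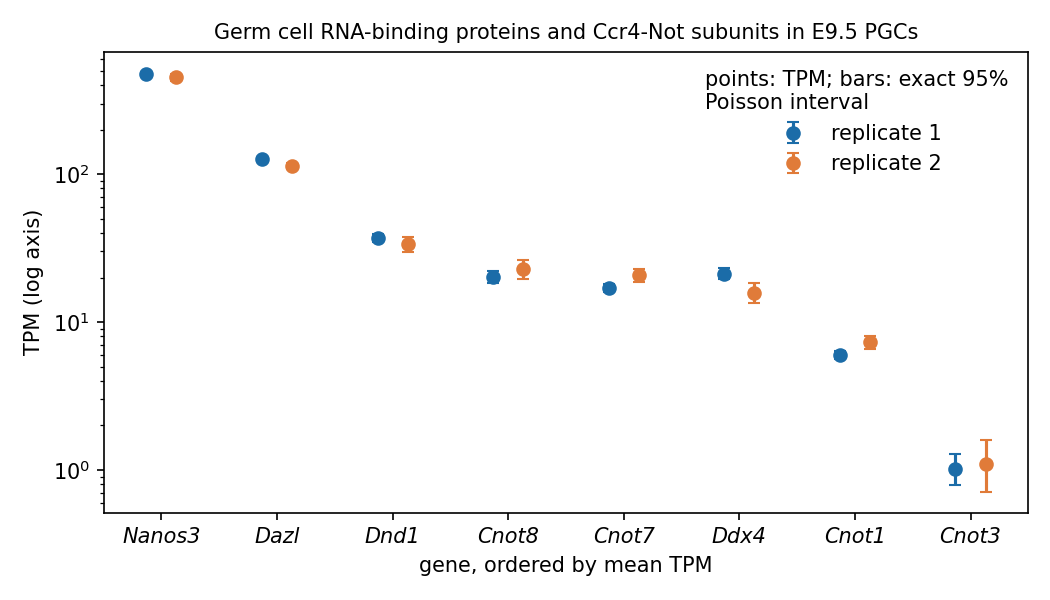
TPM of each gene (log axis) in replicate 1 and replicate 2, ordered by mean TPM, with bars for the exact Poisson 95% interval of the recovered reads. Nanos3 stands at 463 TPM on average, Cnot8, Cnot7 and Ddx4 lie together near 20 TPM, and Cnot3 is close to 1 TPM with the widest interval.

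All 8 members were detected, compared with 60.0% of all genes in the table. For Cnot3 this held narrowly, since scaling both libraries to the same upper quartile left it below 1 TPM in 1 of them. The median member stood at percentile 81.8 of all genes. In the order of mean TPM, 5 of 7 neighbouring pairs had ranges over the 2 libraries that did not overlap. These were Nanos3 above Dazl, Dazl above Dnd1, Dnd1 above Cnot8, Ddx4 above Cnot1 and Cnot1 above Cnot3. The ranges of Cnot8 and Cnot7 overlapped, as did those of Cnot7 and Ddx4. Within each library Cnot8 was nevertheless above Cnot7, whereas Ddx4 was above Cnot7 in replicate 1 but below it in replicate 2. On the log2(TPM + 1) scale, the median of the germ cell members was above that of the Ccr4-Not members by 2.64 and 2.23 in replicates 1 and 2, respectively, with a mean of 2.44 ± 0.289 (SD, n = 2). The groups nevertheless overlapped, since Ddx4 lay below Cnot8 on average.

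The length assigned to each gene was examined next, because TPM divides reads by that length. The deposited values fitted the summed length of all annotated exons, including those of transcripts that retain introns. This length was 17169 bases for Cnot1, 2.05 times its longest protein-coding transcript of 8390 bases, and 2.53 times for Cnot3 (7129 and 2822 bases). It was 1.95 times for Cnot7 but 1.26 times for Cnot8, 1.66 times for Dnd1, 1.28 times for Dazl and 1.27 times for Nanos3, and for Ddx4 both lengths were nearly the same (3014 and 3012 bases). Of 12619 protein-coding genes, 15.6% had a ratio above 2 and the median was 1.27. Long gene models therefore gave Cnot1, Cnot3 and Cnot7 lower TPM relative to the other members than a count per mRNA length would.

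When recovered reads were divided by the longest protein-coding transcript instead, an alternative chosen after seeing the data, the order of the nucleases and Ddx4 changed. Cnot7 was then at 22.0 and 26.5 TPM and Cnot8 at 16.8 and 18.8 TPM in replicates 1 and 2, so Cnot7 was the higher nuclease in both libraries. Ddx4 was at 14.1 and 10.4 TPM, below both nucleases in both libraries, and Cnot1 was at 8.12 and 9.83 TPM. All 7 neighbouring pairs had ranges that did not overlap on this scale, although Ddx4 and Cnot1 were 1.06-fold apart in replicate 2. Nanos3 at 397 and 377 TPM, Dazl at 109 and 95.9 TPM and Dnd1 at 40.8 and 36.8 TPM kept the top of the order, and Cnot3 at 1.71 and 1.81 TPM stayed lowest. Nanos3 exceeded Cnot1 49.0-fold in replicate 1 and 38.3-fold in replicate 2 on this scale. Which transcripts were present in these cells was not measured by the table.

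**Figure D2:**
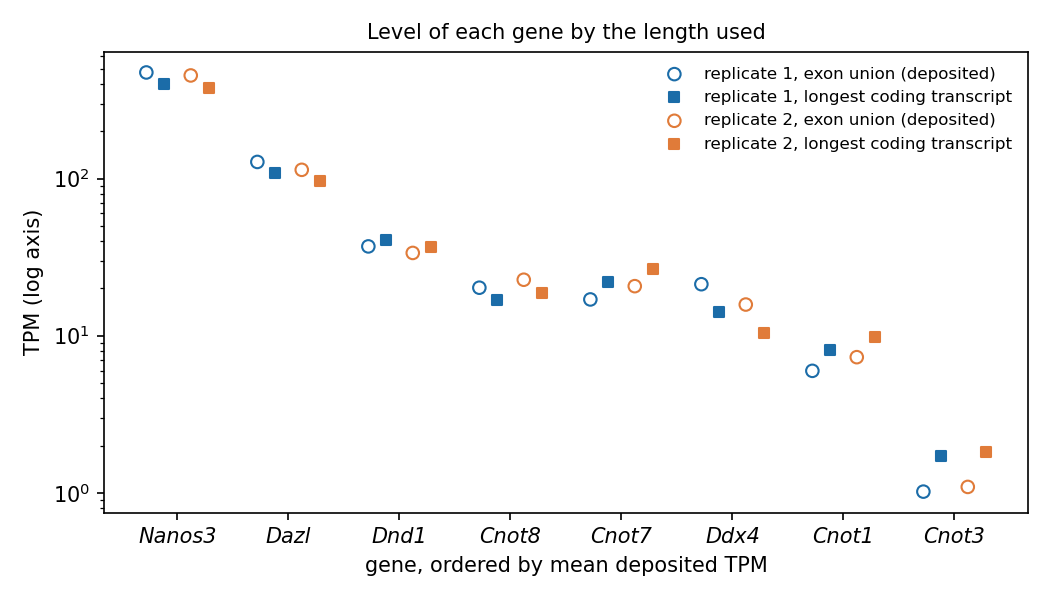
TPM of each gene (log axis) by the length used, with open circles for the deposited values and filled squares for reads divided by the longest protein-coding transcript, in replicates 1 and 2. Cnot7 moves above Cnot8 and Ddx4 moves below both of them, whereas Nanos3, Dazl and Dnd1 remain the highest.

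The spread between the libraries was then described for each member. None of the 8 members differed more than 2-fold on the log2(TPM + 1) scale, compared with 10.2% of all genes (4.31% higher and 5.89% lower in replicate 2). The germ cell members were all lower in replicate 2, with ratios of deposited TPM (replicate 2 over replicate 1) of 0.957 for Nanos3, 0.909 for Dnd1, 0.891 for Dazl and 0.742 for Ddx4, but Nanos3 turned to 1.01 when the libraries were scaled to the same upper quartile. The Ccr4-Not members were all higher in replicate 2, at 1.22 for Cnot1, 1.21 for Cnot7, 1.12 for Cnot8 and 1.07 for Cnot3. The same scaling raises every ratio by the same factor, so it could not have turned the direction of these. Of all genes, 51.3% were lower and 40.9% were higher in replicate 2.

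Counting error alone did not cover all of these ratios. The exact 95% interval of the ratio excluded 1 for Dazl (0.839 to 0.945), Ddx4 (0.619 to 0.885), Cnot1 (1.09 to 1.37) and Cnot7 (1.08 to 1.37), and included 1 for Nanos3, Dnd1, Cnot3 and Cnot8. These intervals omit the spread between samples. Among genes whose reads were within 1.5-fold of those of Ddx4, the SD of the log2 difference was 0.33 and the central 95% ran from -0.81 to 0.48, around the -0.41 of Ddx4. The difference of Cnot7 was 0.27, within the central range of -0.68 to 0.41 of its own neighbours in depth. The same held for the other 6 members, so none stood apart from genes of similar depth.

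**Figure D3:**
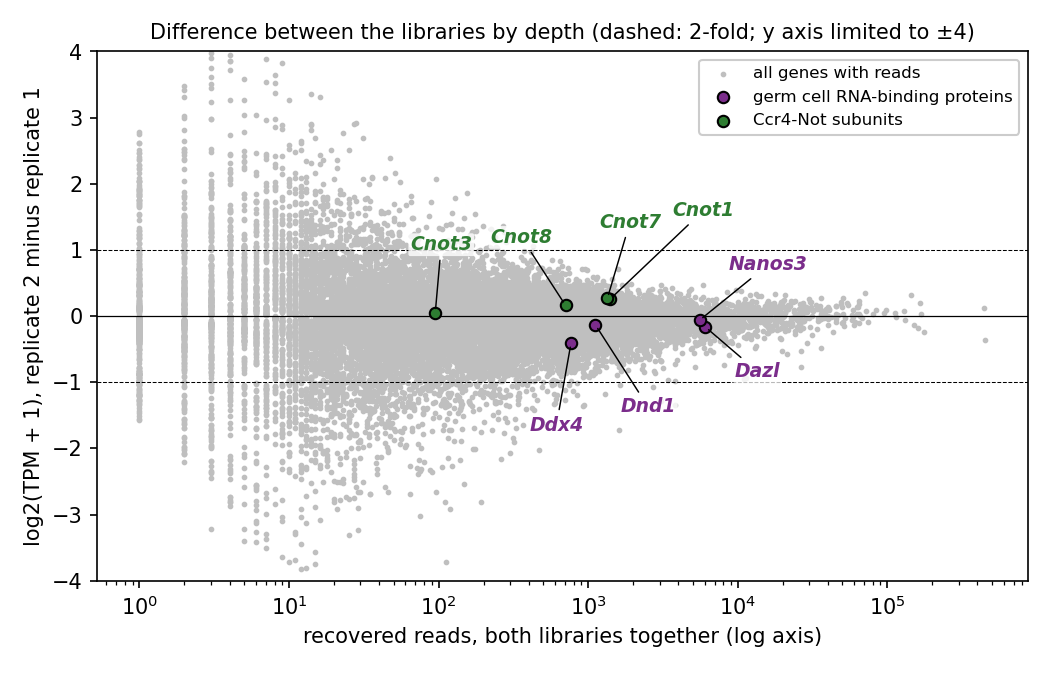
Difference in log2(TPM + 1) between the libraries (replicate 2 minus replicate 1) by recovered reads (log axis), with all genes that had reads in grey and the members in colour. The germ cell members lie at or below 0 and the Ccr4-Not members above it, all inside the grey cloud, and 20 genes lie more than 4 from 0 and are not shown.

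The other 7 subunits of the complex were all detected, against 60.0% of all genes in the table. Cnot2, the partner of Cnot3, was highest at 25.4 and 35.2 TPM in replicates 1 and 2 (mean 30.3 ± 6.88, SD, n = 2), far above Cnot3. Cnot11 (20.7 ± 3.98 TPM) and Cnot10 (10.1 ± 0.875 TPM) form a module at one end of the scaffold. Cnot9, which contacts miRNA silencing proteins, was at 12.9 ± 0.714 TPM, and Cnot4, a ubiquitin ligase, at 8.31 ± 0.707 TPM.

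Of the paralogous Ccr4-type nucleases, Cnot6 was at 21.3 and 16.1 TPM and Cnot6l at 2.18 and 2.67 TPM in replicates 1 and 2, so Cnot6 was 9.76 and 6.04 times as high. This imbalance differed from the pair Cnot7 and Cnot8, whose levels were near each other on the deposited scale. The direction seen in the 4 Ccr4-Not members was not shared by the whole complex. Of all 11 subunits, 7 were higher and 4 lower in replicate 2, the 4 being Cnot6, Cnot9, Cnot10 and Cnot11. Both other scalings gave the same counts, but each shifts the ratios of all subunits by nearly the same factor. They are therefore no independent check of direction. Gene models were also long for other subunits, and 4 of 11 exceeded their longest protein-coding transcript more than 2-fold. Divided by transcript length, Cnot4 rose from a mean of 8.31 to 15.5 TPM and Cnot10 from 10.1 to 15.5 TPM, whereas Cnot2 (29.1 TPM) remained the highest subunit and Cnot3 (1.76 TPM) the lowest.

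The relatives of the germ cell members differed from them in level within most families. Nanos1 was at 0.295 and 0.152 TPM with 11 and 2 reads, so that Nanos3 was by far the more abundant of both. Nanos2, the member of male germ cells, was not analysed here. Boll, the relative of Dazl, was at 0.359 and 0.851 TPM with 12 and 10 reads. Pum2, an mRNA-binding protein that can act together with Nanos, was at 23.3 and 22.4 TPM. Nanos3 was 20.3 and 20.2 times as high as Pum2 in replicates 1 and 2. Rbm46 (9.81 ± 1.02 TPM) and Rbm47 (8.94 ± 2.66 TPM), which resemble Dnd1 in their RNA recognition motifs, were below Dnd1. For Ddx4 the order was the opposite, since the widely expressed helicase Ddx3x was at 163 and 148 TPM, above Ddx4 in both libraries.

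Genes of the wider pathway were mostly expressed. Over all lists, 45 of 53 genes in the table were detected, against 60.0% of all genes. Among other deadenylases and their adaptors, 10 of 11 did so, with a median log2(TPM + 1) of 3.09 ± 0.0347 (SD, n = 2). Pabpc1 and Pabpn1, which bind poly(A), were highest at 97.2 ± 8.39 and 67.7 ± 2.25 TPM, followed by the antiproliferative adaptor Btg3 at 29.7 ± 6.16 TPM. Lowest were the nuclease Parn (4.72 ± 0.314 TPM), Btg2 (2.46 ± 0.0650 TPM) and Tob2 (0.732 ± 0.298 TPM).

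Decapping and decay factors, which act after deadenylation, were detected for 11 of 12 genes, against 60.0% of all genes. Lsm1, a subunit of the ring that binds shortened tails, was at 178 and 168 TPM, above every Ccr4-Not subunit. Lsm14a (36.8 ± 2.23 TPM) and Eif4enif1 (16.9 ± 1.53 TPM), both translational repressors, followed. The nuclease Xrn1 (1.94 ± 0.0774 TPM), Edc4 (2.48 ± 1.26 TPM) and Dcp1b (0.762 ± 0.143 TPM) were lowest. The values of Edc4 were 1.59 and 3.37 TPM, a 2.12-fold ratio, in which replicate 2 was higher.

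miRNA silencing genes, whose products recruit Ccr4-Not to mRNA, formed the lowest of the pathway lists, with a median of 1.86 ± 0.0233, close to the 1.87 ± 0.0282 of all genes. Ago1 (4.64 ± 1.25 TPM), Tnrc6a (3.36 ± 0.156 TPM) and Tnrc6c (2.72 ± 0.712 TPM) were highest. Tnrc6b was at 2.33 ± 0.618 TPM and Ago3 at 1.40 ± 0.244 TPM, and Ago4 had only 2 reads in each library. All were below the level of Cnot1 in both libraries.

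Of 11 other germ cell RNA-binding proteins listed, 9 were in the table and 6 of these were detected, against 60.0% of all genes. That count lies near the share of all genes. Tial1, an RNA-binding protein that PGCs require, was highest at 30.3 and 26.1 TPM, near Dnd1. Mael was at 6.07 and 17.1 TPM with 100 and 99 reads, the largest ratio between libraries among pathway genes with at least 50 reads in each library (2.81-fold), and replicate 2 was higher. Elavl2 was at 10.6 and 9.54 TPM, and Ybx2 (1.10 ± 0.457 TPM), Msi2 (0.965 ± 0.0644 TPM) and Zar1l (0.755 ± 0.595 TPM) were lowest.

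**Figure D4:**
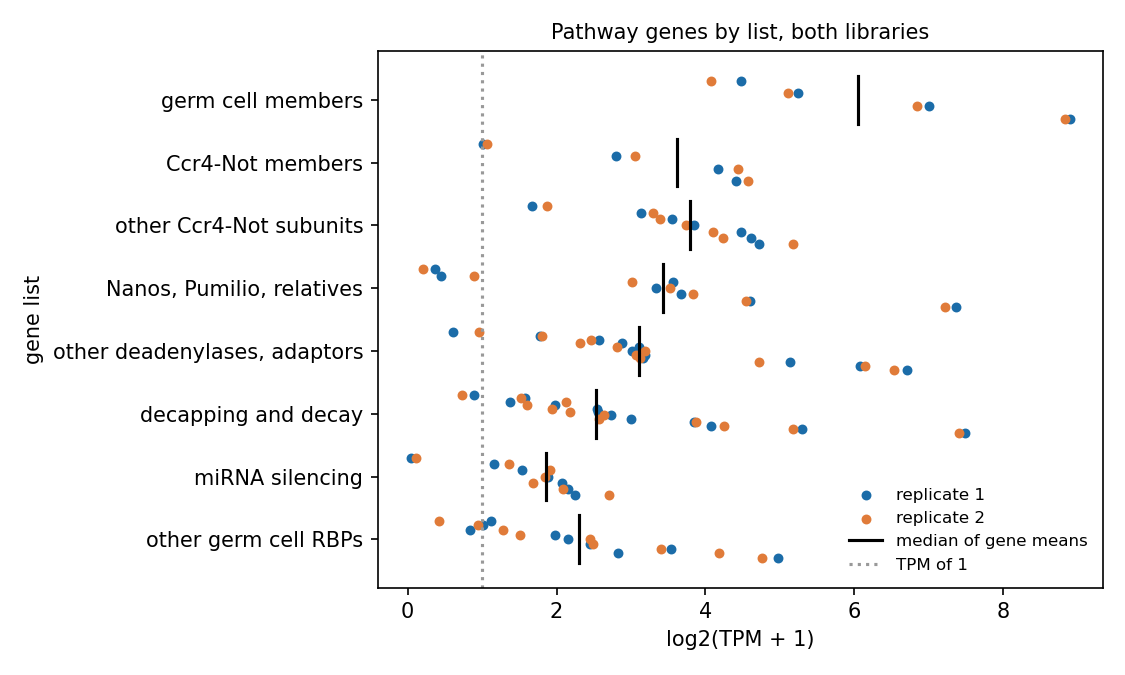
Level of each gene as log2(TPM + 1), by replicate and grouped by list, with a black line at the median of the gene means and a dotted line at a TPM of 1. The germ cell members reach the highest median, Cnot3 lies at the dotted line, and miRNA silencing genes form the lowest list.

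The genes nearest in level to each germ cell member, over both libraries and among 11955 protein-coding genes, were Etfa and Map1lc3b for Nanos3. They were Eif5 and Eif4a3 for Dazl, Sec22b and Rab10 for Dnd1, and Rfwd3 and Rcn2 for Ddx4. The Euclidean distance on the log2(TPM + 1) scale was at most 0.0334, and over 2 libraries such nearness describes a level rather than a pattern.

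Promoter windows from RefSeq (GRCm38.p6), running from 250 bases before to 50 bases after the annotated start, were found for 5 members (Nanos3, Dazl, Ddx4, Cnot3 and Cnot8). They are given for the germ cell members because PGCs lose DNA methylation, which occurs at CpG dinucleotides, as they develop. Capitals mark CpG dinucleotides. The windows were chr8:84176503-84176802 (minus strand) for Nanos3, chr17:50293571-50293870 (minus strand) for Dazl and chr13:112652261-112652560 (minus strand) for Ddx4.
Nanos3: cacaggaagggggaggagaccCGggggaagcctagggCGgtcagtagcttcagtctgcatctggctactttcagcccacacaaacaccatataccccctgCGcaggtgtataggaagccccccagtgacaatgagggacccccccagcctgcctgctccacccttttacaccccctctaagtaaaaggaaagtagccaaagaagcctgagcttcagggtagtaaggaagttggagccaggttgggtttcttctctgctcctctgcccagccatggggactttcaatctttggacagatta
Dazl: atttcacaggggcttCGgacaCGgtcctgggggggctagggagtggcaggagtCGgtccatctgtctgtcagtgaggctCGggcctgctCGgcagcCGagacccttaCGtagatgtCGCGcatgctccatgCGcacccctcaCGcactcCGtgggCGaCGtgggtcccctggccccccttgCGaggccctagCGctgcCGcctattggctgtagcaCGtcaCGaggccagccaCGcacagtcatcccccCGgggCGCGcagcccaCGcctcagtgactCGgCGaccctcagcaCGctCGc
Ddx4: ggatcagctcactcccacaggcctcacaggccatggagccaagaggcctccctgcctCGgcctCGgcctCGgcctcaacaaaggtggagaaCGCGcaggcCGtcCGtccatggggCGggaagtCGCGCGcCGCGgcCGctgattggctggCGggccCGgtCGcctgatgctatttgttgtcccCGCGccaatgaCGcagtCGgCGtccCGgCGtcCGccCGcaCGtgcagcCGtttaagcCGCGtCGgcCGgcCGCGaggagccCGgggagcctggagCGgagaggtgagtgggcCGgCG
Nanos3 held 3 CpG dinucleotides, and 5.0% of 10819 promoter windows held fewer. Dazl held 28 and Ddx4 held 38, above 73.0% and 90.9% of windows, respectively. Cnot3 and Cnot8 held 28 and 30. Nanos3 and Ddx4, the highest and the lowest germ cell members by TPM, thus had the CpG-poorest and the CpG-richest of these windows. Dnd1 had no window, and Cnot3, the lowest of all members by TPM, held as many CpG dinucleotides as Dazl. A relation between CpG content and level was not tested. The E-box CACGTG was searched on both strands and occurred in the window of Ddx4 alone among the 5, and in 10.1% of all windows. The letters TCCCGC, also searched on both strands, occurred in those of Ddx4, Cnot3 and Cnot8, and in 35.0% of all windows. GENCODE annotates the 5′ end of Nanos3 8665 bases upstream of this RefSeq start. Neither methylation nor binding at these windows was measured in this table.

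**Figure D5:**
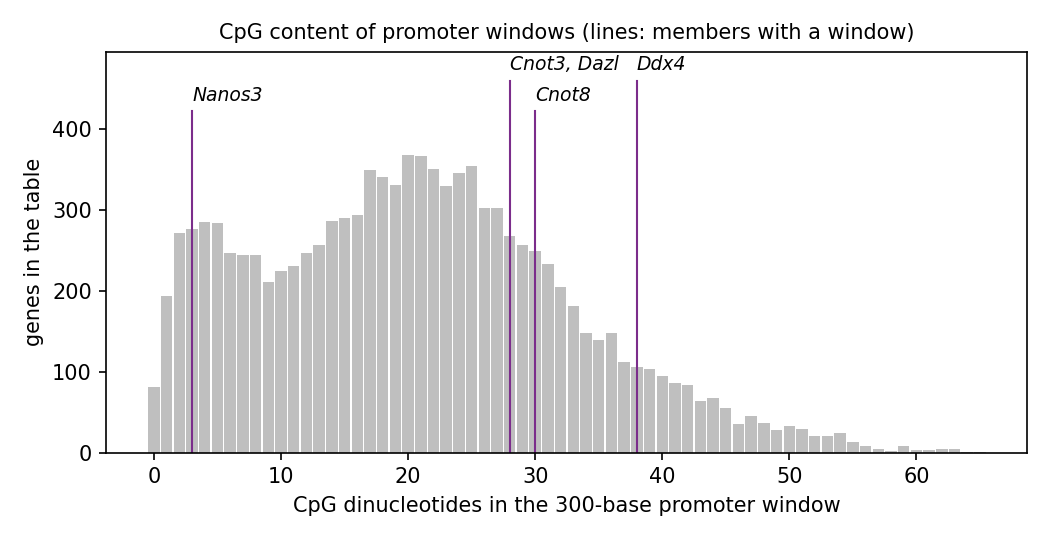
Number of genes in the table by CpG dinucleotides in the 300-base promoter window, with vertical lines at the members that had a window. Nanos3 lies at 3, Cnot3 and Dazl at 28, Cnot8 at 30 and Ddx4 at 38, around a median of 20.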

How the data were processed

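RNA-seq of 2 libraries of 1 group was analysed. The authors used Hisat2 to align reads to mm10 and featureCounts to assign them to genes. The deposited table holds 1 TPM value per gene and library. The submitters' processing notes also name Bowtie2, RSEM and R 3.4.2. The methods describe Smart-seq2 cDNA, whereas the labels name another library kit. Aligner versions, annotation, strand and multi-mapping are not given in the sources used here.

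Symbols were matched to GENCODE M21 on GRCm38, and 18748 had a single identifier. Deposited TPM multiplied by exon-union length gave multiples of 1 amount per library, taken as 1 read. Of values under 50 reads, 96.7% and 95.8% came within 0.02 of a whole number, where chance gives 4.0%. Intervals are exact and cover counting error only.

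Members and gene lists were chosen with earlier results of these data known. Named were every member, other Ccr4-Not subunit and relative, the 3 highest and 3 lowest genes of each longer list, and the 2 protein-coding genes nearest to each germ cell member, without predicted genes (Gm and Rik symbols). Of the relatives, 1 relative is not reported here. Edc4 is also given by its ratio, a choice made after its values were seen. Replicates are biological per the series text. Coding sequences were aligned with Biopython 1.88. Analyses used Python 3.11.15, numpy 2.4.6, pandas 2.3.3, scipy 1.17.1 and matplotlib 3.10.9.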

Additional observations from a re-analysis of the deposited data

How the results depend on the processing

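The median percentile of the members was 73.4 among genes with a mean TPM of at least 1, and leaving out a replicate gave 82.0 to 83.0. The number of other pathway genes detected in both libraries was 26 at a TPM of at least 5. The excess of the germ cell members over the Ccr4-Not members was 2.23, as the mean of both libraries, when reads were divided by the longest protein-coding transcript. Leaving out a replicate only returned the values of the single libraries, 2.23 and 2.64, and is no further check. At a TPM of at least 5, 7 members were detected, and 7 reached a TPM of 1 after scaling to the same upper quartile, Cnot3 being the exception in both cases. Dividing by transcript length, an alternative chosen after seeing the data, moved the mean log2 level of all 8 members beyond 1 SD. It gave 7 non-overlapping neighbouring pairs instead of 5, but members were ordered anew on that scale, so the pairs are not the same. The ratio of Ddx4 to Cnot1 in replicate 2 fell from 2.16 to 1.06. No paired analysis was possible because there was only 1 group. Among the members, depth limits Cnot3 most, with 69 and 26 reads.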
